A study of Mus musculus with 8 samples.

Results

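Ms4a1, Cd79a, Cd79b, Pax5, Ebf1, Blk, Cr2, Fcer2a and Cd22 are genes of the B lymphocyte lineage, and they were followed in whole thymus lobes of space-flown and ground-control mice. They were taken from a fixed list of 9 symbols, each represented by the probe set annotated to that gene alone. All 9 had exactly 1 such probe set, and they are 9 of 19938 genes measured in this way. Thymus lobes came from C57BL/6NTac mice aged 8 weeks, with 1 microarray for each animal. The spaceflight group was 4 mice that spent 13 days on the space shuttle, and the ground-control group was 4 mice of matching age and sex that lived in animal enclosure modules of the same kind. No allele or agent is named for either group, and every sample was a piece of whole tissue and not a sorted cell population. In such samples, fewer cells of a type and less RNA per cell cannot be told apart.

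The thymus makes T cells, but it also holds a small population of B cells, most of them in the medulla and at the border between cortex and medulla, where they present antigen to maturing thymocytes. A B cell senses antigen through a membrane immunoglobulin that signals through the paired chains CD79A and CD79B, and kinases such as BLK pass the signal on. CD22 dampens that signal, while CR2, a receptor for fragments of complement, strengthens it. EBF1 and PAX5 are the transcription factors that commit precursors to the lineage, and PAX5 and EBF1 act on the promoter of Cd79a.

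Of the 9 genes, 6 had an entry in the RefSeq promoter table of build GRCm38.p6. The windows below are the 250 bases before the start site of 3 of them, shown because the results turn on how other members follow Cd79a across mice, Fcer2a closely and Cd22 less so, and because each holds a match to a motif searched. Capitals mark matches to CNCNNGGGA, a shortened form of the EBF motif with its first arm relaxed, or to AGGAAGT, a core bound by ETS factors. Of the 3 start sites of Fcer2a in the table, the one shown is the only one whose window held a match. The windows of Cr2, Pax5 and Ebf1 held no match to any motif searched, and Ms4a1, Cd79b and Blk had no entry.
Cd79a, chr7:24897247-24897496, plus strand: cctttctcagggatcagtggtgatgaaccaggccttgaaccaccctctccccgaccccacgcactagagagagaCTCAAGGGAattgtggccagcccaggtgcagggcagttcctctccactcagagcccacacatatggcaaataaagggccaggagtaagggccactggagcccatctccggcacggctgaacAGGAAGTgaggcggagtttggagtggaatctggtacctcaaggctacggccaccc
Cd22, chr7:30879029-30879278, minus strand: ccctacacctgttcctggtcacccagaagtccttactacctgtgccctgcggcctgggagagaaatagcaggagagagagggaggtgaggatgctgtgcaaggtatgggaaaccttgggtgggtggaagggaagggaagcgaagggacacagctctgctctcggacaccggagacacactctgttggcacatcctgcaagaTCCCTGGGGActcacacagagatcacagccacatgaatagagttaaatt
Fcer2a, chr8:3690862-3691111, minus strand: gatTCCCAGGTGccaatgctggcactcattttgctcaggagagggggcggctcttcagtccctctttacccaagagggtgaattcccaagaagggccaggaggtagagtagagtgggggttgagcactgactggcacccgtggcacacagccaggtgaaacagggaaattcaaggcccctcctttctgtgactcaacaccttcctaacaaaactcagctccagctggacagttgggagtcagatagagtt
In Cd79a the EBF-like match began 176 bases before the start site and the ETS core 55 bases before it. In Cd22 the EBF-like match was found on both strands, 1 base apart, and overlapped CCCNNGGG, the symmetric EBF core. Across all 32851 promoter windows, searched on both strands, 18.1% held CNCNNGGGA, 11.8% held CCCNNGGG, 7.69% held AGGAAGT and 1.60% held the octamer ATGCAAAT. The octamer was in none of the 9 windows of these genes. The motifs were chosen after the values and the Cd79a window had been seen, and a match is a description of the letters only.

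The tissue carried its defining markers. Rag1, which encodes a subunit of the recombinase of T and B cell receptor genes, lay between 12.29 and 12.64 on the log2 scale in the 8 arrays, and Cd8b1, a chain of the CD8 co-receptor, between 11.60 and 11.80. Among the arrays, replicates 1 and 3 of the spaceflight group were the least like the rest. Over all genes their interquartile range was 2.22 in both, against 2.55 to 2.84 in the other 6, and they correlated with those 6 at 0.956 to 0.986, where the 6 correlated with each other at 0.984 to 0.993. Values for the 9 genes and medians of the gene lists are given with and without these 2 arrays.

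None of the 9 B cell genes passed the test between spaceflight and ground-control mice. The number called at a limma adjusted p under 0.05, adjusted over all genes, was 0 of 9, against 16 of 19938 genes, or 0.0802%, in the whole comparison (3 higher and 13 lower, or 3 and 3 with arrays centred on their 75th percentiles). At an unadjusted limma p under 0.05 there was 1 of the 9, Ebf1, against 10.8% of all genes. The arrays of the 2 groups overlapped for all 9 genes, while 6.01% of all genes had arrays that did not overlap. The mean was lower in spaceflight for 6 genes and higher for 3, with a median difference of -0.14 (spaceflight minus ground control, log2), where the median over all genes was -0.018. Of all genes 53.5% had a lower mean in spaceflight, a share that also stands beside the counts of lower means in the lists below. Without spaceflight replicates 1 and 3 the median of the 9 was 0.087, with 5 of 9 higher, and again 0 were called.

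The 2 chains of the receptor's signalling unit varied widely between mice of the same group. Cd79a measured 7.00, 7.47, 6.91 and 7.88 on the log2 scale in spaceflight replicates 1 to 4. In ground control it was 7.49, 7.15, 7.91 and 7.25 in replicates 1 to 4. The highest mouse of either group and the lowest thus lay 2.00-fold apart, and both groups held a mouse near 7.9. The means were 7.31 ± 0.45 in spaceflight and 7.45 ± 0.34 in ground control (mean ± SD, n = 4 each), a difference of -0.14 ± 0.22 (± SE; 95% interval -0.62 to 0.35; limma adjusted p = 0.809). Its sign turned without spaceflight replicates 1 and 3, to 0.22 ± 0.21.

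Cd79b, its partner chain, measured 7.39, 7.80, 7.19 and 8.31 in spaceflight replicates 1 to 4. In ground control it measured 7.70, 7.08, 7.85 and 7.60. The highest array was spaceflight replicate 4 and the lowest ground-control replicate 2, so the order of the groups changed within the range. The difference was 0.12 ± 0.23 (95% interval -0.39 to 0.62; limma adjusted p = 0.847), with means of 7.67 ± 0.49 and 7.56 ± 0.34 (n = 4 each). Without spaceflight replicates 1 and 3 it was 0.50 ± 0.21 (adjusted p = 0.655), and without spaceflight replicate 4 it was -0.096.

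Ms4a1 encodes CD20, a membrane protein of mature B cells that is widely used as their marker. It measured 6.11, 6.91, 6.45 and 7.29 in spaceflight replicates 1 to 4 and 7.36, 6.32, 7.23 and 6.85 in ground control. Ground-control replicate 2 sat with the 2 low spaceflight arrays, and spaceflight replicate 4 with the high ground-control arrays. The means were 6.69 ± 0.52 and 6.94 ± 0.47 (n = 4 each), and the difference of -0.25 ± 0.26 had a 95% interval of -0.83 to 0.33 (limma adjusted p = 0.701). Without spaceflight replicates 1 and 3 its sign turned, to 0.16 ± 0.26.

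**Figure D1:**
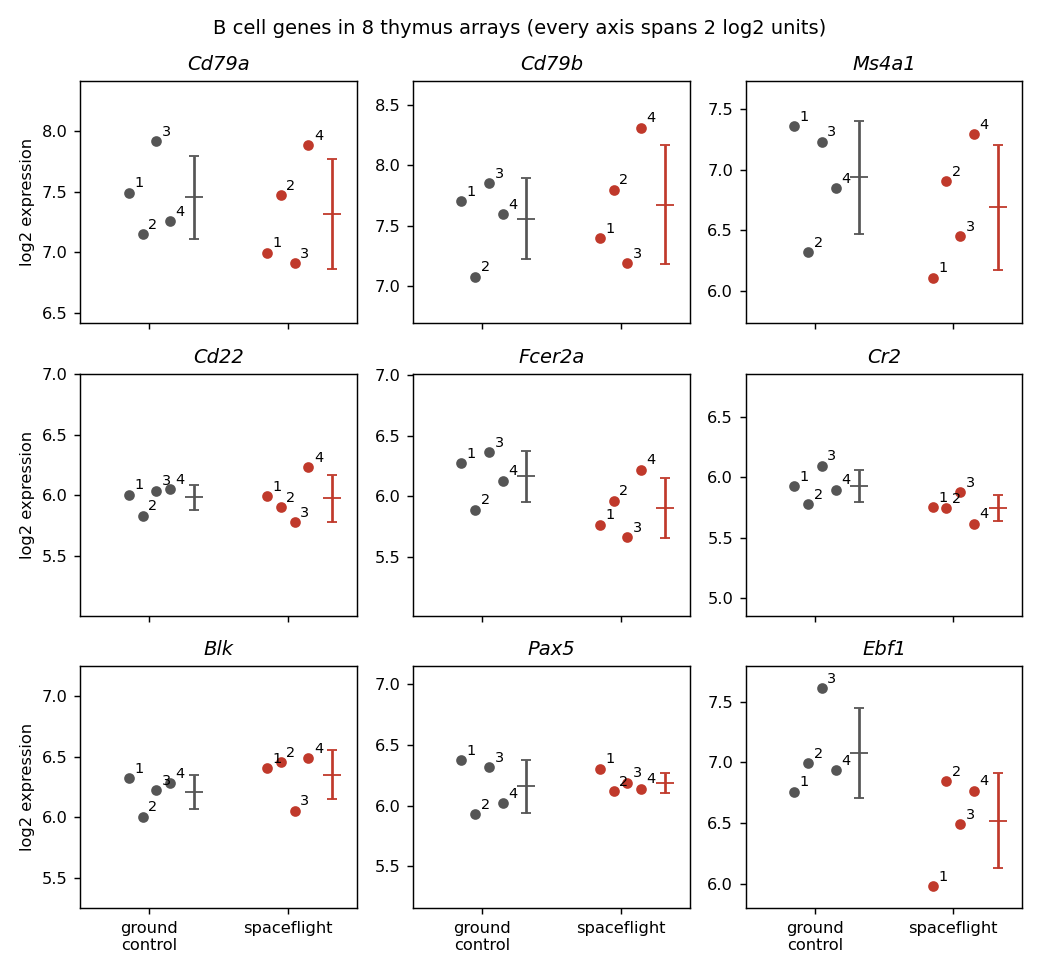
Log2 expression of the 9 B cell genes in ground-control (grey) and spaceflight (red) mice, 1 numbered point per array, with bars for mean ± SD (n = 4 each) and every vertical axis spanning 2 log2 units. Cd79a, Cd79b, Ms4a1 and Ebf1 are spread over 1.00 to 1.64 units, Pax5, Cr2, Cd22 and Blk over 0.45 to 0.48, and the groups overlap in every panel.

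Receptors that tune the response showed smaller spreads. Cd22, the inhibitory co-receptor, measured 5.99, 5.90, 5.78 and 6.23 in spaceflight replicates 1 to 4 and 6.01, 5.83, 6.04 and 6.05 in ground control. The spaceflight arrays lay on both sides of the ground-control arrays. The difference was -0.0059 ± 0.12 (95% interval -0.27 to 0.26; limma adjusted p = 0.986). It was 0.087 ± 0.13 without spaceflight replicates 1 and 3 (95% interval -0.20 to 0.37). A change of more than 0.27 thus lay outside the interval of the main fit, but an increase of that size did not lie outside the second. Both intervals describe the values of this probe set in whole tissue and set no limit on a change within B cells.

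Fcer2a, which encodes CD23, the low-affinity receptor for IgE on mature B cells, measured 5.77, 5.96, 5.66 and 6.22 in spaceflight and 6.27, 5.89, 6.36 and 6.13 in ground control, each in the order of replicates 1 to 4. The 2 lowest arrays were spaceflight replicates 3 and 1, and the 2 highest were ground-control replicates 3 and 1. The difference was -0.26 ± 0.15 (95% interval -0.58 to 0.060; limma adjusted p = 0.506). It shrank to -0.073 ± 0.15 without spaceflight replicates 1 and 3.

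Cr2 encodes the complement receptors CD21 and CD35, which follicular dendritic cells of lymph nodes also carry, as they do CD23. It measured 5.75, 5.74, 5.88 and 5.62 in spaceflight and 5.93, 5.78, 6.10 and 5.90 in ground control. Spaceflight replicate 3 lay above ground-control replicate 2, and the other spaceflight arrays lay below all of ground control. The difference of -0.18 ± 0.11 did not pass (95% interval -0.42 to 0.064; limma adjusted p = 0.537), and it was -0.24 ± 0.12 without spaceflight replicates 1 and 3.

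Blk, a kinase of the SRC family that acts beneath the receptor and is also transcribed in some early thymocytes, measured 6.40, 6.46, 6.05 and 6.49 in spaceflight and 6.32, 6.01, 6.23 and 6.28 in ground control. In spaceflight, 3 arrays lay above every ground-control array, and replicate 3 lay near the lowest ground-control mouse. The difference was 0.14 ± 0.13 (95% interval -0.14 to 0.42; limma adjusted p = 0.646) and 0.26 ± 0.12 without spaceflight replicates 1 and 3 (adjusted p = 0.679).

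The 2 lineage factors differed in how they varied. Pax5, which holds cells in the B lineage, measured 6.30, 6.12, 6.19 and 6.14 in spaceflight and 6.37, 5.93, 6.32 and 6.02 in ground control. The spaceflight arrays all lay inside the range of the ground-control arrays. The difference was 0.029 ± 0.13 (95% interval -0.24 to 0.30; limma adjusted p = 0.934), and -0.030 ± 0.15 without spaceflight replicates 1 and 3.

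Over all 8 arrays Ebf1 had the largest difference of the 9 genes, while Cd79b had it (0.50) without spaceflight replicates 1 and 3. Ebf1 measured 5.98, 6.84, 6.49 and 6.77 in spaceflight replicates 1 to 4 and 6.76, 6.99, 7.61 and 6.93 in ground control. Spaceflight replicate 1 was the lowest array and ground-control replicate 3 the highest, while spaceflight replicates 2 and 4 overlapped ground-control replicate 1. The means were 6.52 ± 0.39 and 7.07 ± 0.37 (n = 4 each), a 1.47-fold lower level in spaceflight, or -0.56 ± 0.21 on the log2 scale (95% interval, for this gene alone, -1.02 to -0.090). It did not pass over all genes (limma adjusted p = 0.403). The difference was -0.37 without spaceflight replicate 1, -0.38 without ground-control replicate 3 and -0.27 ± 0.20 without spaceflight replicates 1 and 3. EBF1 also acts in precursors of fat cells and in other stromal cells, so its transcript in whole tissue is not specific to B cells.

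**Figure D2:**
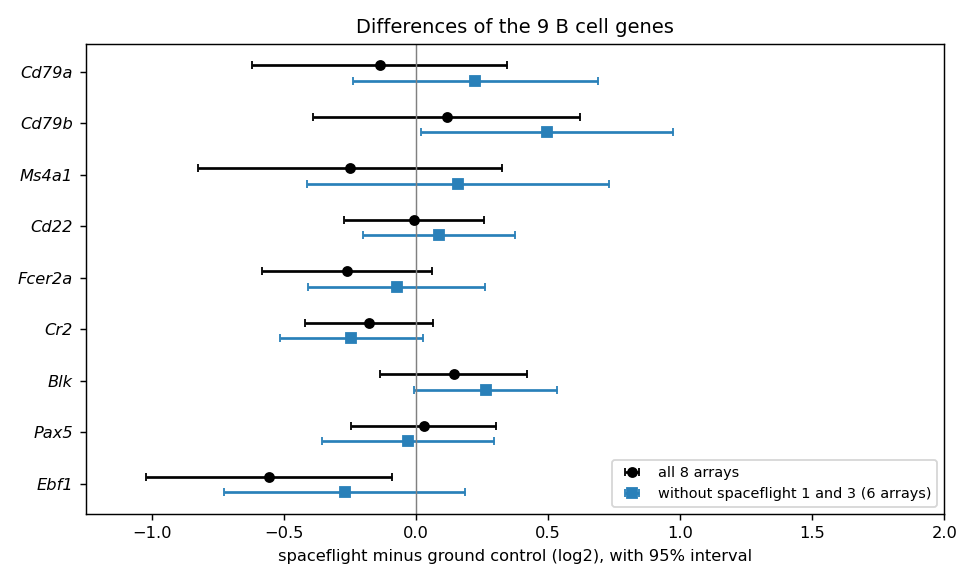
Differences between spaceflight and ground control (horizontal axis, log2, with 95% intervals from limma) for the 9 genes over all 8 arrays (black circles) and without spaceflight replicates 1 and 3 (blue squares). Ebf1 moves from -0.56 to -0.27, while Ms4a1 and Cd79a change sign, from -0.25 to 0.16 and from -0.14 to 0.22.

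Among genes as a whole, Ms4a1, Cd79a, Cd79b and Ebf1 were unusually variable between mice of the same group. The pooled standard deviation within groups was 0.49 for Ms4a1, 0.42 for Cd79b, 0.40 for Cd79a and 0.38 for Ebf1, larger than for 98.2%, 96.8%, 96.0% and 95.1% of all genes, whose median was 0.19. Those of Fcer2a (0.23), Blk (0.17), Pax5 (0.17), Cd22 (0.15) and Cr2 (0.12) exceeded 67.6%, 41.5%, 37.4%, 31.1% and 14.2% of genes. The values of these 5 genes ran from 5.62 to 6.49, around the median of all genes on each array, which was 6.14 to 6.29, and no detection call was used to say whether they exceeded the array's background.

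Cd79b, Fcer2a and Ms4a1 went up and down with Cd79a from mouse to mouse. Across the 8 arrays Cd79a correlated with Cd79b at r = 0.87 (exact permutation p = 0.00412, adjusted p = 0.0177; rho = 0.88, exact permutation p = 0.00724, adjusted p = 0.0338). With Fcer2a it was r = 0.88 (exact permutation p = 0.00481, adjusted p = 0.0177; rho = 0.95, exact permutation p = 0.00114, adjusted p = 0.00799). With Ms4a1 it was r = 0.86 (exact permutation p = 0.00861, adjusted p = 0.0231; rho = 0.83, exact permutation p = 0.0154, adjusted p = 0.0538). Spaceflight replicate 4 and ground-control replicates 1 and 3 were high for Ms4a1 and Fcer2a, and spaceflight replicate 4 and ground-control replicate 3 also for Cd79a and Cd79b. Spaceflight replicates 1 and 3 with ground-control replicate 2 were the 3 lowest arrays for each of the 4 genes, so that both groups held high and low mice. All p-values are two-sided and adjusted over 14 relations, and the points share an array's scaling. The share of all genes that follow Cd79a as closely was not counted. These correlations are therefore not shown to be particular to B cell genes.

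Leaving out spaceflight replicate 4 and ground-control replicate 3, the arrays farthest from the median of Cd79a, r was 0.81 for Cd79b, 0.85 for Fcer2a and 0.86 for Ms4a1. Without spaceflight replicates 1 and 3 it was 0.85, 0.75 and 0.79. The co-variation of these 4 genes therefore did not rest on either pair of arrays.

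The other members followed Cd79a less closely. Cd22 had r = 0.72 (exact permutation p = 0.0418, adjusted p = 0.0731; rho = 0.71, exact permutation p = 0.0576, adjusted p = 0.115), which was 0.46 without the 2 farthest arrays and so rested on them. Ebf1 had r = 0.67 (exact permutation p = 0.0644, adjusted p = 0.100; rho = 0.52, exact permutation p = 0.197, adjusted p = 0.306). Blk had r = 0.47 (exact permutation p = 0.242, adjusted p = 0.294; rho = 0.38, exact permutation p = 0.360, adjusted p = 0.458). Pax5 (r = 0.23, exact permutation p = 0.564, adjusted p = 0.607; rho = 0.31, exact permutation p = 0.462, adjusted p = 0.539) and Cr2 (r = 0.13, exact permutation p = 0.759, adjusted p = 0.759; rho = 0.19, exact permutation p = 0.665, adjusted p = 0.665) showed no relation that passed. Without spaceflight replicates 1 and 3 r was 0.65 for Pax5, 0.70 for Cd22, 0.53 for Blk, 0.38 for Ebf1 and 0.11 for Cr2, and without the 2 farthest arrays it was 0.089 for Pax5. Whether these correlations differ from those of Ms4a1, Cd79b and Fcer2a was not tested. The order depends on taking Cd79a as the reference. Cd79b correlated with Cd22 at r = 0.86, with Ms4a1 at 0.81, with Blk at 0.78 and with Fcer2a at 0.73. Those values were not tested, so Cd22 and Blk are not shown to stand apart from the genes that follow Cd79a closely.

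**Figure D3:**
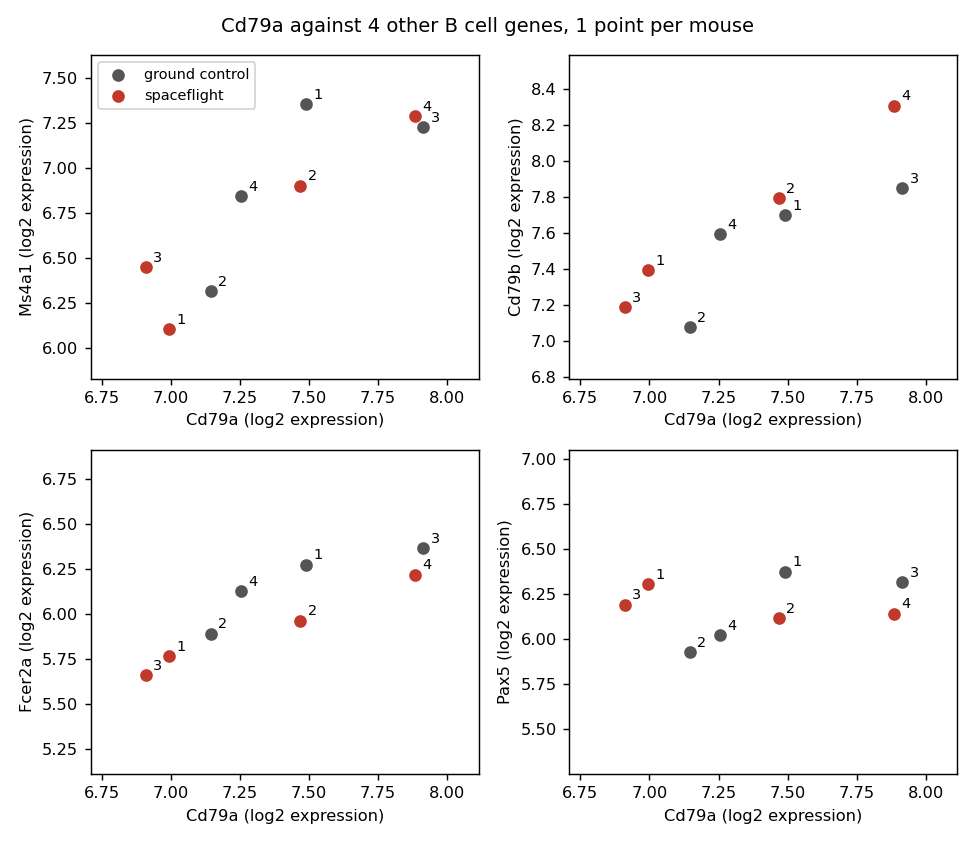
Log2 expression of Cd79a (horizontal axis) against Ms4a1, Cd79b, Fcer2a and Pax5 (vertical axes of equal span), 1 point per mouse numbered by replicate, in ground control (grey) and spaceflight (red). Ms4a1, Cd79b and Fcer2a climb with Cd79a (r = 0.86, 0.87 and 0.88) while Pax5 follows it less closely (r = 0.23, or 0.65 without spaceflight replicates 1 and 3), with mice of both groups along the whole range.

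Averaged over the 9 genes, each taken relative to its own mean over the 8 arrays, ground-control replicate 3 was highest at 0.30, then spaceflight replicate 4 at 0.23 and ground-control replicate 1 at 0.14. Spaceflight replicate 2 (0.032) and ground-control replicate 4 (0.011) lay in the middle. Ground-control replicate 2 (-0.22), spaceflight replicate 1 (-0.25) and spaceflight replicate 3 (-0.26) were lowest. Of 19929 other genes, those whose 8 values were most like this average by Pearson correlation were Ccdc91 (r = 0.98), Wdsub1 (0.97), C2 (0.96), Bcl2l12 (0.96) and Plcd1 (0.95). The 8 arrays and their scaling are shared by all genes compared, and this is a description with no test. Their rank correlations ran from 0.93 to 0.98, and in the 6 arrays without spaceflight replicates 1 and 3 their r ran from 0.93 to 0.97.

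Other genes of the B cell receptor pathway also gave no call. Of 24 listed genes of the receptor, its co-receptors and its signalling, 19 were measured by a probe set of their own. The number called was 0 of 19, where 0.0802% of all genes were called. Of the 19, 15 had a lower mean in spaceflight, with a median of -0.093. Without spaceflight replicates 1 and 3, 4 of 19 were lower, with a median of 0.14. The smallest p-values were those of Fcrl1, an Fc receptor-like protein of B cells (difference 0.24 ± 0.13, limma adjusted p = 0.500), Cd81, a tetraspanin of the cell membrane (-0.32 ± 0.18, adjusted p = 0.509), and Ptpn6, the phosphatase SHP-1 that CD22 recruits (-0.22 ± 0.13, adjusted p = 0.512). Ighm, the heavy chain of IgM, measured 6.96, 7.23, 7.05 and 7.77 in spaceflight replicates 1 to 4 and 7.10, 6.96, 7.40 and 7.04 in ground control, again highest in spaceflight replicate 4. The 5 genes of the list with no such probe set were not analysed here.

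All 15 listed transcription factors that act in B cells beside EBF1 and PAX5 were measured, and 0 were called, with a median of -0.14 that turned to 0.023 without spaceflight replicates 1 and 3. Those of smallest p were Relb, a subunit of NF-kappaB (-0.40 ± 0.15, limma adjusted p = 0.395), Bcl6, a repressor of germinal centre B cells that thymocytes also use (-0.28 ± 0.14, adjusted p = 0.470), and Spi1, which encodes PU.1 of B and myeloid cells (-0.29 ± 0.15, adjusted p = 0.478). Of 16 genes for survival, costimulation and homing, 15 were measured and 0 called, with a median of -0.056, or 0.095 without the same 2 arrays. Cd83, an activation marker of dendritic cells and B cells, was the one with the smallest p. It measured 6.70, 7.00, 6.86 and 7.25 in spaceflight replicates 1 to 4 and 7.57, 7.34, 7.53 and 7.80 in ground control. Its groups did not overlap, as was so for 6.01% of all genes, yet it did not pass over all genes (-0.60 ± 0.14, limma adjusted p = 0.184). Among the other listed genes, the groups of Rag2, Cd24a, Ciita, Retn, Ccr9 and Cd8a did not overlap either. Cd86, a costimulatory ligand, differed by -0.50 ± 0.22 (adjusted p = 0.447), and Cd40lg, the T cell ligand that B cells answer to, by -0.23 ± 0.12 (adjusted p = 0.483).

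Neither early B lineage genes nor plasma cell genes were called. Of 10 early genes, all measured, the median difference was -0.0051 (-0.025 without spaceflight replicates 1 and 3), and Cd24a, Rag2 and Il7r had the smallest p (-0.32 ± 0.11, -0.25 ± 0.11 and 0.26 ± 0.13; limma adjusted p = 0.371, 0.449 and 0.471). These 3 are abundant in thymocytes as well. Of 11 plasma cell genes, 10 were measured, with a median of -0.031, or 0.023 without those arrays. Xbp1, a factor of secretory cells, differed by -0.50 ± 0.21 (adjusted p = 0.432), Sdc1, the plasma cell marker CD138 that epithelium also carries, by -0.38 ± 0.17 (adjusted p = 0.456), and Tnfrsf17, a receptor of plasma cells, by 0.31 ± 0.21 (adjusted p = 0.552).

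Thymus lobes can be taken with a neighbouring lymph node, and its markers were read beside the B cell genes. Of 14 listed genes of lymph node stroma, high endothelial venules and follicular dendritic cells, among which Fcer2a and Cr2 are counted, 12 were measured and 0 called, with a median of -0.076, or 0.016 without spaceflight replicates 1 and 3. Glycam1, a ligand of lymphocyte homing made by high endothelial venules, measured 9.23, 8.72, 9.16 and 10.13 in spaceflight replicates 1 to 4 and 9.70, 8.10, 9.89 and 9.41 in ground control. Cxcl13, the chemokine that draws B cells into follicles, measured 6.69, 8.71, 7.27 and 7.94 in spaceflight and 7.55, 6.66, 7.60 and 6.80 in ground control. Glycam1 was highest in spaceflight replicate 4 and ground-control replicate 3, the high mice for Cd79a, and lowest in ground-control replicate 2, whereas Cxcl13 was highest in spaceflight replicate 2. Chst4 of the same list was also highest in ground-control replicate 3 (5.84) and lowest in ground-control replicate 2 (5.24). Madcam1 did not follow these mice. It was highest in spaceflight replicate 1 (5.88), with 5.51 in spaceflight replicate 4 and 5.50 in ground-control replicate 3. Relative to their own means, the 12 genes averaged -0.41 to 0.15 in spaceflight and -0.080 to 0.27 in ground control, and their part in the B cell values was not tested. The genes of smallest p were Sox9 (-0.30 ± 0.13, limma adjusted p = 0.447), Ccl19 (-0.29 ± 0.14, adjusted p = 0.466) and Ltf (-0.89 ± 0.50, adjusted p = 0.505), and Ltf stood at 5.91 in spaceflight replicate 1 against 8.30 to 9.15 elsewhere.

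Antigen-presenting cell genes correlated with Cd79a across mice, but they did not match the B cell genes in every mouse. Ground-control replicate 2 was low for the 9 B cell genes (mean -0.22 relative to their own means). It lay at 0.0046 for dendritic cell and macrophage genes and at 0.012 for MHC class II genes. Spaceflight replicates 1 and 3 were the lowest arrays of both lists. Cd79a correlated across the 8 arrays with the mean of 16 dendritic cell and macrophage genes at r = 0.89 (exact permutation p = 0.00342, adjusted p = 0.0177; rho = 0.95, exact permutation p = 0.00114, adjusted p = 0.00799). It did so with the mean of 8 MHC class II genes at r = 0.90 (exact permutation p = 0.00506, adjusted p = 0.0177; rho = 0.81, exact permutation p = 0.0218, adjusted p = 0.0610). Without the 2 arrays farthest in Cd79a these were 0.85 and 0.79, and without spaceflight replicates 1 and 3 they were 0.99 and 0.81. B cells carry MHC class II themselves, so the second list is not separate from them.

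Dendritic cell and macrophage genes averaged -0.44, 0.083, -0.26 and 0.26 in spaceflight replicates 1 to 4, relative to their own means, and 0.092, 0.0046, 0.25 and 0.015 in ground control. Their median difference was -0.13, with 13 of 16 lower and 0 called. The median turned to 0.091, with 7 of 16 lower, without spaceflight replicates 1 and 3. Adgre1, a surface marker of macrophages, Sirpa and Itgax, the integrin CD11c, had the smallest p (-0.55 ± 0.24, -0.30 ± 0.14 and -0.29 ± 0.14; limma adjusted p = 0.447, 0.464 and 0.467). MHC class II genes, 8 of 10 measured, had a median of -0.18 with 7 of 8 lower, which became 0.055 with 3 of 8 lower without those arrays. Relative to their own means, they averaged -0.32, 0.025, -0.42 and 0.36 in spaceflight replicates 1 to 4. In ground control they averaged -0.0059, 0.012, 0.25 and 0.10. Ciita, the master activator of the class, Cd74, its invariant chain, and H2-Ab1 differed by -0.34 ± 0.13, -0.36 ± 0.15 and -0.33 ± 0.17 (limma adjusted p = 0.393, 0.438 and 0.483). Of plasmacytoid dendritic cell genes 11 of 13 were measured, with 0 called and a median of -0.16, or -0.025 without those arrays. The smallest p there belonged to Ly6d (-0.52 ± 0.20, adjusted p = 0.400), Ccr9 (-0.16 ± 0.10, adjusted p = 0.532) and Tcf4 (-0.21 ± 0.14, adjusted p = 0.552). Ly6d and Ccr9 are also transcribed by thymic epithelium and by thymocytes.

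Ebf1 followed fat and stromal genes. Its correlation with the mean of 14 such genes was r = 0.92 (exact permutation p = 0.0102, adjusted p = 0.0231; rho = 0.71, exact permutation p = 0.0576, adjusted p = 0.115). Without spaceflight replicate 1 and ground-control replicate 3, the arrays farthest from the median of Ebf1, r was 0.31, so the relation rested on those 2 arrays, and without spaceflight replicates 1 and 3 it was 0.86. These genes averaged -0.73, 0.17, -0.023 and 0.064 in spaceflight replicates 1 to 4 and -0.017, 0.13, 0.50 and -0.087 in ground control, lowest and highest in the same mice as Ebf1. For Cd79a the correlation with them was 0.64 (exact permutation p = 0.0798, adjusted p = 0.112; rho = 0.64, exact permutation p = 0.0962, adjusted p = 0.168), 0.49 without the 2 arrays farthest in Cd79a and 0.56 without spaceflight replicates 1 and 3. Ebf1 with the dendritic cell and macrophage mean gave r = 0.82 (exact permutation p = 0.0116, adjusted p = 0.0231; rho = 0.45, exact permutation p = 0.267, adjusted p = 0.374), 0.49 without spaceflight replicate 1 and ground-control replicate 3, and 0.35 without spaceflight replicates 1 and 3. Of the 14 genes 13 were lower in spaceflight and 0 were called, with Retn (-0.83 ± 0.22), Lep (-0.75 ± 0.21) and Plin1 (-0.73 ± 0.27) the 3 of smallest p (limma adjusted p = 0.246, 0.279 and 0.393). The median of the 14 was -0.14, and without spaceflight replicates 1 and 3 it turned to 0.078, with 6 of 14 lower. Retn, Lep and Plin1 are fat cell genes, as is Adipoq (-0.62), while the fat cell genes Fabp4 and Cidec differed by -0.10 and -0.17. The fibroblast and mural cell genes of the list differed less, from -0.17 for Col1a1 to 0.16 for Lum. The part of fat or stroma in the Ebf1 difference was not tested. The correlations pool the 2 groups, and Ebf1 and 13 of the 14 genes were both lower in spaceflight. No correlation within a group was computed, so the group difference is not separated from differences between mice.

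Thymocyte genes spanned a narrower range across mice. The mean of 13 of the 16 listed genes, each relative to its own mean, lay between -0.20 and 0.099, where the 9 B cell genes ran from -0.26 to 0.30. All 13 were lower in spaceflight and 0 were called, with a median of -0.14, and 8 of 13 were lower without spaceflight replicates 1 and 3, with a median of -0.041. Those of smallest p were Rag2, Cd8a (-0.22 ± 0.10, limma adjusted p = 0.467) and Cd4 (-0.15 ± 0.11, adjusted p = 0.573). The correlation of Cd79a with this mean was 0.45 (exact permutation p = 0.252, adjusted p = 0.294; rho = 0.19, exact permutation p = 0.665, adjusted p = 0.665). It was 0.78 without the 2 arrays farthest in Cd79a and -0.92 without spaceflight replicates 1 and 3, so its sign was set by which arrays were kept.

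**Figure D4:**
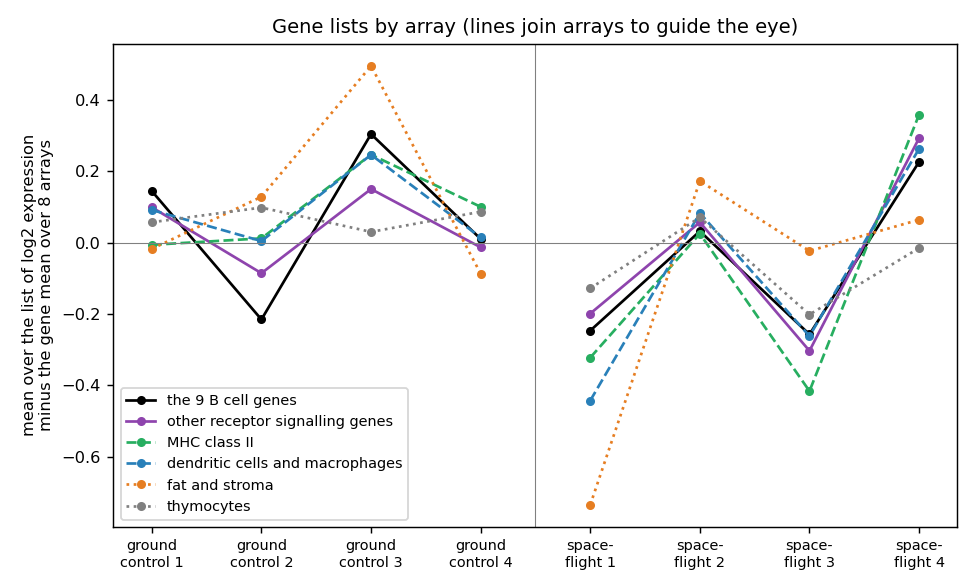
Mean of each gene list in each of the 8 arrays (vertical axis, log2 expression relative to each gene's mean over the arrays), for the 9 B cell genes and 5 other lists; lines only guide the eye, since replicates have no order. The B cell genes, from -0.26 to 0.30, dip in spaceflight replicates 1 and 3 and ground-control replicate 2 and peak in spaceflight replicate 4 and ground-control replicate 3, and fat and stromal genes fall to -0.73 in spaceflight replicate 1.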

How the data were processed

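RNA from 8 thymuses was measured on Affymetrix arrays, and the deposited table holds log2 expression values that the authors made with RMA (background correction, quantile normalization and probe summary), per the submitters' processing notes, which also name limma. The sources used here name no versions, genome build or filters. Of 35557 probe sets, the lowest unbroken run of 6614 identifiers, none with a gene, was left out as likely controls. Of 28943 others, 21789 had a single gene in the platform annotation and 1621 several; 21698 symbols were updated through GRCm38.p6 gene identifiers. Each gene took its probe set of highest mean, giving 19938 genes.

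Groups were compared with limma 3.58.1 in R 4.3.3 (lmFit, eBayes, two-sided, Benjamini-Hochberg over all genes, threshold 0.05). Intervals are 95% and not adjusted. The number of arrays limits the precision. Correlations used exact permutation tests. The procedure was tested on simulated data. The 12 lists, the members among them (161 genes, 145 measured), were chosen with earlier results of these data known. Named were the 9 genes, up to 3 genes of smallest p in each list, markers that describe a list, and the 5 genes most like the members' mean. Ighm, Glycam1, Cxcl13, Chst4, Madcam1 and Cd8b1 are such markers. Promoter windows came from RefSeq. The labels do not say that replicate numbers pair the mice, so the main fit used no pairing. Alternatives covered scaling, low values, variance model, array weights, probe sets, the replicate block and left-out arrays.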

Additional observations from a re-analysis of the deposited data

How the results depend on the processing

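Under 19 alternatives 0 of the 9 B cell genes were called, and the smallest limma adjusted p among them ran from 0.214 to 0.799. The count over all genes was 16; it was 6 with arrays centred on their 75th percentiles, 8 probe sets when all probe sets of the table were tested singly, 10 with the fit over probe sets outside the lowest run of identifiers (chosen after seeing the data), and 6 to 15 when single arrays were left out. It was 9 without spaceflight replicate 1, 10 without spaceflight replicate 3, and 9, 8, 6 and 7 without ground-control replicates 1 to 4.

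The median of the 9 was -0.14 and became 0.087 with both arrays that stand apart left out; single omissions gave -0.23 to 0.013. It was 0.0025 with arrays centred on their 75th percentiles, -0.018 with array weights, -0.071 with repeated quantile normalization and -0.091 with arrays centred on medians. Blk, Cr2, Ebf1 and Fcer2a kept their direction in all 17 alternatives. With both arrays out, Ms4a1 turned to 0.16, Cd79a to 0.22, Cd22 to 0.087 and Pax5 to -0.030. Centring on 75th percentiles, which moved the median of all genes from -0.018 to 0.12, turned Cd79a (0.0025) and Cd22 (0.13); centring on medians turned Cd22 (0.040), as did array weights (0.0074). Single omissions gave -0.33 to 0.018 for Cd79a, -0.096 to 0.28 for Cd79b, -0.049 to 0.10 for Pax5 and -0.092 to 0.061 for Cd22. The cause of these turns was not tested.

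With the replicate block, 20 genes were called and 0 of the 9. Deviations of same-numbered mice from their group means correlated at r from -0.30 to 0.24. Such values cannot show whether mice were matched by number, and the labels do not say so.

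No array of any B cell gene stood apart within its group by Dixon's test (18 groups, highest ratio 0.804).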
